A study of Drosophila melanogaster with 4 samples.

Results

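Isolated narrow peaks of trimethylated lysine 4 on histone H3 (H3K4me3) were described in whole Drosophila melanogaster embryos. A peak is a stretch of the genome that the authors' peak caller reported as enriched by chromatin immunoprecipitation and sequencing (ChIP-seq). A peak counted as isolated and narrow when it lay on 1 of the 6 chromosome arms (2L, 2R, 3L, 3R, 4 and X), was under 500 bp wide, and had no peak of 1000 bp or wider on the same arm within 5000 bases. The rule selected 339 peaks of 7425 in the list, or 339 of the 6715 on the arms. These members were chosen by the width and position of peaks in the same peak call that gives their score. Width, score and spacing are therefore given as descriptions, with no test. The peaks set beside them are the 1169 other narrow peaks of the arms, which are under 500 bp wide but have a wide peak within 5000 bases.

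Per the labels, 2 libraries hold DNA pulled down by a polyclonal antibody raised in rabbit against H3K4me3, and 2 hold input DNA, sequenced with no antibody step. Both groups came from embryos of the strain Y cn bw sp, collected between 8 and 16 h of development. The embryos of both groups were crosslinked with 1.8% formaldehyde for 15 min. All 4 libraries share 1 genotype, which lists y[1] and oc[R3.2], then Gr22b[1] and Gr22d[1] with cn[1], CG33964[R4.2], bw[1] and sp[1], and also LysC[1] and lab[R4.2], together with MstProx[1] and GstD5[1] and with Rh6[1]. The deposited list is 1 table for the whole series and names no library. No value below has a replicate error, the read depth is unknown, and intervals cover counting error among peaks only. Whole embryos hold many cell types, so the mark in few cells and a low level in many cells cannot be told apart.

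In the fly H3K4me3 is written mainly by the methyltransferase Set1, which acts within the COMPASS complex. The mark is known from the first nucleosomes of transcribed genes, where proteins with a PHD finger bind it. Related methyltransferases, Trithorax and Trithorax-related, methylate the same lysine at selected genes and at enhancers. Genes were not assigned to peaks here, because the gene table in hand is of release 6 and the list is on FlyBase release 5.

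Isolated narrow peaks were a small part of the marked genome. They made up 22.5% of the 1508 narrow peaks of the arms (exact Clopper-Pearson 95% interval 20.4 to 24.7) and 5.05% of all arm peaks. Together they covered 113 kb, which is 0.992% of the 11432 kb that peaks cover on the arms. Widths ran from 201 to 495 bp, with a median of 330 bp and quartiles of 252.5 and 399.5 bp. The other narrow peaks had a median width of 303 bp, with quartiles of 241 and 387 bp.

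The scores of the isolated narrow peaks were low on the scale of the list, yet stood above those of the other narrow peaks. The score is the authors' own value for each peak, and no source used here gives its scale. Isolated narrow peaks had a median score of 12.8, with quartiles of 10.1 and 17.3 and a range from 6.71 to 83.07. Other narrow peaks had a median of 10.7, with quartiles of 9.02 and 13.1 and a range from 5.67 to 75.20. The 95% order-statistic interval of the median ran from 11.98 to 13.96 for isolated peaks and from 10.49 to 10.86 for the others. The difference of the medians was 2.08 score units. The 1246 peaks of 500 to 999 bp had a median of 30.5, and the 3961 peaks of 1000 bp or wider had a median of 217.

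**Figure D1:**
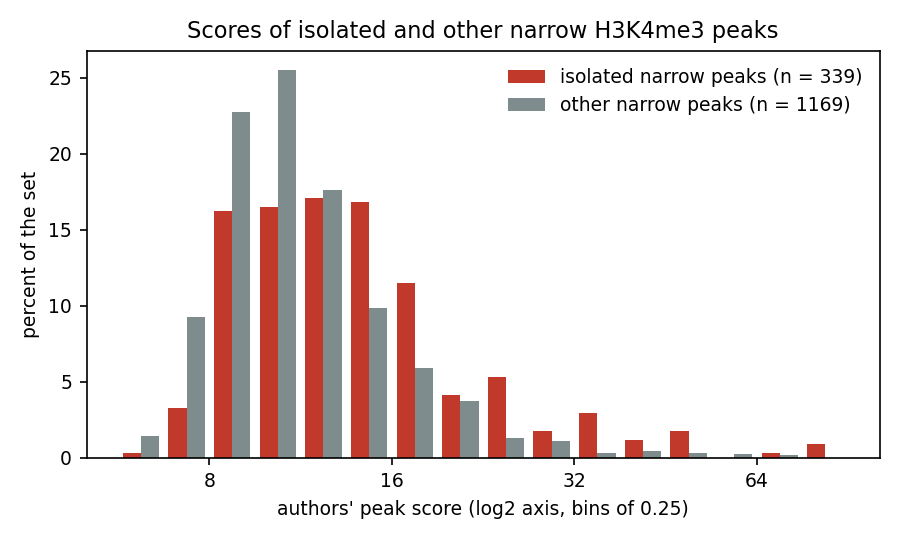
Percent of each set (vertical axis) by the authors' peak score (horizontal axis, log2, bins of 0.25) for the 339 isolated narrow peaks (red) and the 1169 other narrow peaks (grey). The isolated peaks are spread further to the right, with medians of 12.8 against 10.7.

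High scores were more frequent among isolated than among other narrow peaks. A score of 20 or more was held by 58 isolated narrow peaks, or 17.1% (13.3 to 21.5), and by 70 other narrow peaks, or 5.99% (4.70 to 7.51). At 30 or more the shares were 7.37% of the isolated and 2.22% of the other peaks. At 40 or more they were 4.13% and 0.941%, and at 50 or more 1.47% (5 peaks) and 0.599% (7 peaks), with exact intervals that overlap at 50. The 5th percentile of the wide peaks is a score of 41.8, and 13 isolated narrow peaks reached it. At the low end, 114 isolated narrow peaks, or 33.6% (28.6 to 38.9), scored no higher than the single mitochondrial peak at 11.05, against 643 other narrow peaks, or 55.0% (52.1 to 57.9). Mitochondrial DNA carries no histones, but a single peak has no spread, and whether its score marks a background for the arms was not tested.

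Scores of narrow peaks took repeated values. The 339 isolated peaks held 218 distinct scores, and 74 of the peaks, or 21.8%, stood at 11 scores that 5 or more isolated peaks share. The most frequent score, 11.6, was held by 11 isolated and 8 other narrow peaks. The next, 9.41, was held by 9 isolated and 9 other narrow peaks, and 11.98 by 8 isolated and 3 other narrow peaks. Among other narrow peaks 18.7% stood at scores shared by 5 or more of that set, although that set is larger and so repeats values more easily. The share was 4.49% among wide peaks.

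Wider members scored higher. Across the 339 isolated narrow peaks Spearman's rho of width and score was 0.540, with a Pearson's r of 0.529 after log2 transformation, and across the 1169 other narrow peaks rho was 0.459. These are correlations across peaks of 1 list, and width and score come from 1 peak call. Between 200 and 299 bp the median score was 10.5 for 133 isolated peaks and 9.77 for 565 other narrow peaks. Between 300 and 399 bp it was 14.6 for 121 isolated peaks and 11.4 for 346 others. Between 400 and 499 bp it was 16.1 for 85 isolated peaks and 13.6 for 258 others. The isolated peaks thus had the higher median in each of the 3 width classes, by 0.71, 3.13 and 2.49 score units. The intervals of the medians met in the narrowest class, at 9.98 to 11.2 for isolated and 9.44 to 10.0 for other peaks. They did not overlap in the other 2 classes. These intervals take the peaks of 1 list as independent, so they describe the list and are no test between the sets.

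The 58 members with a score of 20 or more were drawn from the wider end. Their median width was 413.5 bp, against 315 bp for the 281 members with a lower score, and 5 of the 58 were under 300 bp. They lay a median of 12177 bases from the nearest wide peak, with quartiles of 8290 and 16738.5 bases. The lower-scoring members lay a median of 16388 bases away, with quartiles of 9458 and 29400 bases, so the ranges between quartiles overlap. A score of 20 or more was reached by 19 of 82 members on 3R, 13 of 61 on 2R, 12 of 79 on 3L, 8 of 59 on 2L, 6 of 57 on X and 0 of 1 on chromosome 4.

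Named by score, the 10 highest members were at or above 45.54 and had a median width of 458 bp. The highest was at 3R 17488334 to 17488720, 387 bp wide with a score of 83.07, at 29617 bases from the nearest wide peak. Its nearest neighbour, 2009 bases away, was a wider peak of 799 bp that scored only 13.75. The second, on 2L from 13665580 to 13666032, scored 79.31 at a width of 453 bp and lay 104969 bases from a wide peak. The third, at 2R 13604286 to 13604779, scored 76.92 at a width of 494 bp. It had no peak of any kind within 5 kb, but 10 wide peaks lay between 5 and 50 kb of it.

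The next members by score were also spread over several arms. At 3R 9227078 to 9227569 the score was 65.56, and a peak of 699 bp with a score of 125.11 lay 570 bases away. At 3R 6522333 to 6522765 the score was 50.03, and the nearest peak of any kind was 9299 bases away. The highest member of 3L, at 19287849 to 19288247, scored 47.43 and had its nearest neighbour 27438 bases away. The remaining members of these 10 were 3R 574185 to 574664 with 47.41, 2R 8884102 to 8884455 with 46.79, X 13078553 to 13079015 with 46.16 and X 13072094 to 13072578 with 45.54. The 2 members on X were each other's nearest peak, 5974 bases apart, and had close scores. The sole member on chromosome 4, at 75716 to 75963, was 248 bp wide and scored 17.38.

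Isolated narrow peaks lay far from wide peaks by rule, but over a broad range of distances. The median distance was 15072 bases, with quartiles of 9294 and 28249 bases and a range from 5012 to 224404. At 10 kb or more lay 241 members (71.1%), at 20 kb or more 121 (35.7%), at 50 kb or more 38 (11.2%) and at 100 kb or more 11 (3.24%). The other narrow peaks lay a median of 405 bases from a wide peak, and 73.4% of them were under 1000 bases away.

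The score did not climb steadily with distance. Narrow peaks under 200 bases from a wide peak had a median score of 11.1 (interval 10.7 to 11.5, n = 313). The median was 10.8 at 200 to 499 bases, 10.2 at 500 to 999 bases, and 10.1 (9.61 to 10.5, n = 190) at 1000 to 1999 bases. It was 11.5 (10.7 to 12.5, n = 121) at 2000 to 5000 bases. Among members it was 13.0 at 5001 to 9999 bases (n = 98), 13.2 at 10000 to 19999 bases (n = 120), 13.3 at 20000 to 49999 bases (n = 83) and 11.6 at 50000 bases or more (n = 38). The intervals of these 4 classes, 11.6 to 14.38, 11.98 to 15.22, 11.6 to 14.38 and 10.85 to 14.8 in that order, overlap. Each of the 4 also overlaps the interval of the class at 2000 to 5000 bases. The interval at 50000 bases or more overlaps that under 200 bases as well. Across the 339 members Spearman's rho of distance and score was -0.04.

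**Figure D2:**
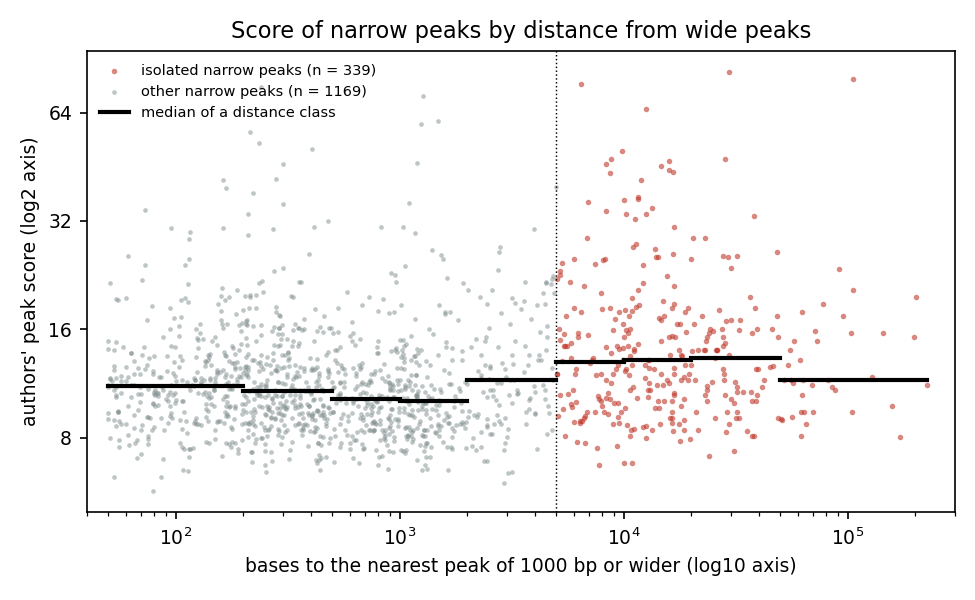
Authors' score (vertical axis, log2) of each narrow peak against the bases to its nearest wide peak (horizontal axis, log10), for isolated narrow peaks (red) and other narrow peaks (grey), with the median of each distance class as a black line and the 5000-base limit dotted. The class medians lie between 10.1 and 11.5 before the limit and between 11.6 and 13.3 after it. The 95% interval of the last class median before the limit, 10.65 to 12.52, overlaps that of each class after it.

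The 10 members farthest from any wide peak were 104271 bases or more away and had a median score of 13.5. The farthest, at 3L 18391097 to 18391321, was 225 bp wide with a score of 11.22, and its nearest peak of any kind was 212495 bases away. At 3L 24224854 to 24225262 the distance was 202085 bases and the score 19.66, and at X 9776217 to 9776451 it was 196500 bases with a score of 15.22. X 20566140 to 20566391, at 170134 bases, scored 8.05, and X 22256612 to 22256870, at 157292 bases, scored 9.77. The others were 3R 18725331 to 18725678 with a score of 15.64, 3L 14402735 to 14402947 with 11.80, 2L 13551153 to 13551599 with 20.60, and the pair on 2L at 13665580 to 13666730. Only the 2L peak of score 79.31 was among both the 10 farthest and the 10 highest-scoring members.

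Peaks just inside and just outside each limit were as follows. The 5 widest members were 492 to 495 bp wide with scores from 8.74 to 76.92. The 5 narrowest peaks of 500 bp or more that lay over 5000 bases from any wide peak were 500 to 502 bp wide. Their scores ran from 12.74 to 36.10, and they were not matched to the members by distance. The 5 members nearest to a wide peak, at 5012 to 5140 bases, scored 9.21 to 22.10, and the 5 other narrow peaks farthest from one, at 4796 to 4974 bases, scored 8.39 to 39.72. The 5 members with the widest neighbours within 5000 bases, of 971 to 981 bp, scored 9.19 to 22.10. The 5 other narrow peaks whose widest neighbour was least, at 1007 to 1037 bp, scored 9.41 to 15.90.

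Isolated narrow peaks were thinly spread over the sequence open to them. The arms spanned 120 Mb from first to last peak, and 88.0 Mb of that, or 73.2%, lay over 5 kb from any wide peak. This sequence held 3.85 members per Mb (exact Poisson 95% interval 3.45 to 4.28). The 22.1 Mb within 5 kb of a wide peak held 52.9 other narrow peaks per Mb (49.9 to 56.0). The density away from wide peaks was 0.0729 of that beside them. The Poisson intervals take peaks as independent, and the mappable length of this sequence was not determined.

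By arm, 3R held 82 members (24.2%), 3L 79 (23.3%), 2R 61 (18.0%), 2L 59 (17.4%), X 57 (16.8%) and chromosome 4 held 1. Per Mb over 5 kb from any wide peak the density was 4.37 on 3L, 4.20 on 2R, 4.06 on 3R, 3.39 on 2L (2.58 to 4.38), 3.36 on X (2.55 to 4.36) and 1.14 on chromosome 4 (0.0288 to 6.33). The intervals of all 6 arms overlap. Members made up between 20.3% of the narrow peaks of 2R (15.9 to 25.3) and 25.4% of those of 3L (20.7 to 30.6) on the 5 larger arms, with overlapping intervals. On chromosome 4 they were 1 of 23 narrow peaks, or 4.35% (0.110 to 21.9).

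The score difference between the sets had 1 direction on the 5 larger arms, though it was small on 2L. The median was 13.6 for isolated and 10.6 for other narrow peaks on 2R, 13.3 and 10.4 on 3L, 13.0 and 10.7 on 3R, and 13.2 and 10.6 on X. On 2L it was 11.6 (10.5 to 12.8) for isolated and 10.8 for other narrow peaks, a difference of 0.77. The median of the other narrow peaks there lies within the interval of the isolated median. The highest member scored 83.07 on 3R, 79.31 on 2L, 76.92 on 2R, 47.43 on 3L and 46.16 on X.

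**Figure D3:**
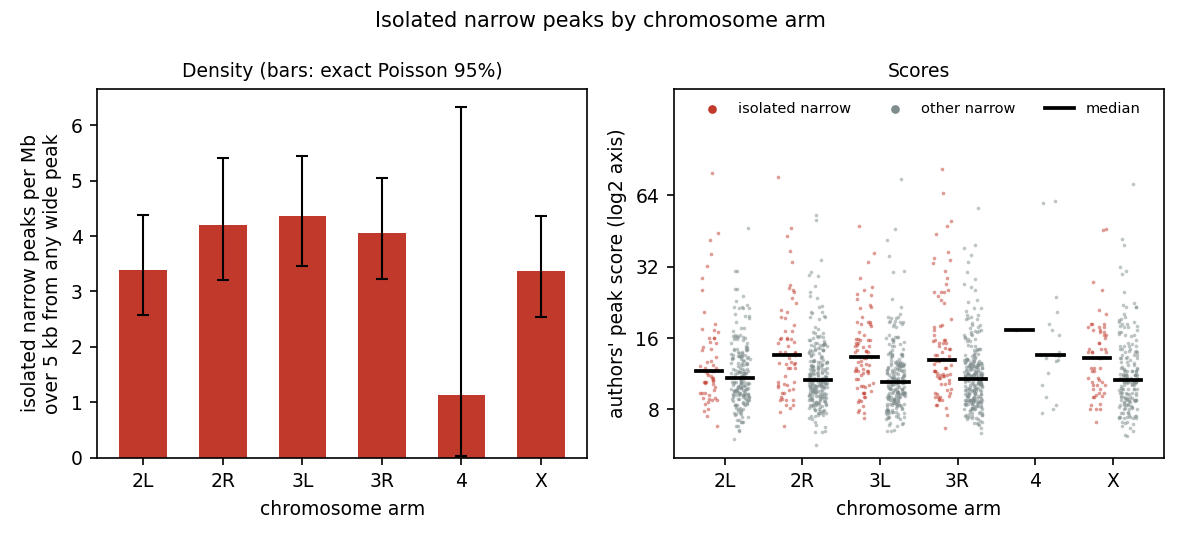
Left, isolated narrow peaks per Mb of sequence over 5 kb from any wide peak on each chromosome arm, with exact Poisson 95% intervals; right, authors' scores (log2 axis) of isolated (red, left in each pair) and other narrow peaks (grey), with medians as black lines. Densities on the 5 larger arms run from 3.36 to 4.37 per Mb, and isolated medians lie above the others on each of these 5.

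Members were denser in short gaps between wide peaks than in long ones. Of 1668 gaps between neighbouring wide peaks that could hold a member, 265, or 15.9%, did so, and 0 members lay outside the first and last wide peak of an arm. A single member was found in 209 gaps, 2 members in 43, 3 in 9, 4 in 3 and 5 in 1. Counted per Mb over 5 kb from any wide peak, the density was 7.28 (4.07 to 12.0) in the 461 gaps of 10 to 20 kb and 7.94 (6.42 to 9.70) in the 536 gaps of 20 to 50 kb. It was 4.62 (3.75 to 5.64) in the 351 gaps of 50 to 100 kb and 2.49 (2.08 to 2.95) in the 320 gaps of 100 kb or more. The longest gaps still held the most members by number, 132 of 339, and 53.0 Mb of the open sequence lay in them. The gap with 5 members was at 2R 18102171 to 18205167, where their scores ran from 8.77 to 13.57.

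**Figure D4:**
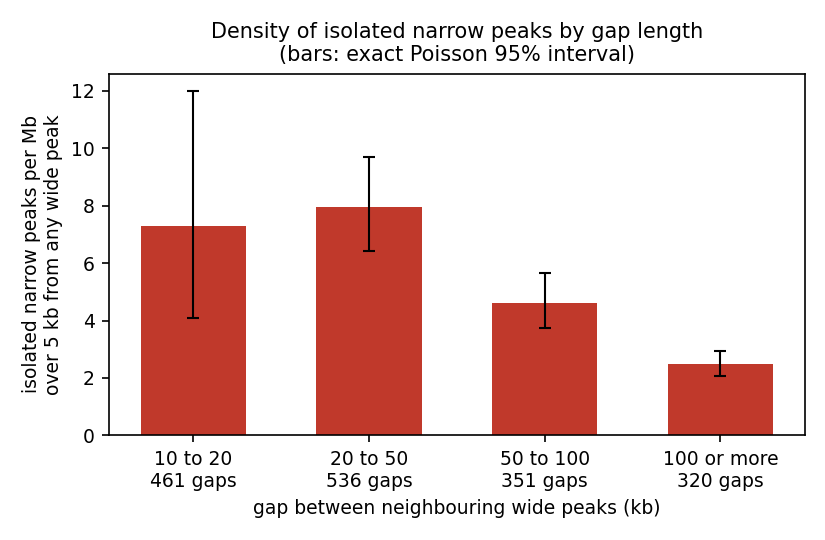
Isolated narrow peaks per Mb of sequence over 5 kb from any wide peak (vertical axis), by the length of the gap between the 2 neighbouring wide peaks in kb (horizontal axis), with exact Poisson 95% intervals. The density is 7.28 and 7.94 per Mb in gaps under 50 kb, and 4.62 and 2.49 per Mb in longer gaps.

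Most isolated narrow peaks stood alone. No peak of any width lay within 5 kb of 205 members, or 60.5%. A peak of 500 to 999 bp lay within 5 kb of 86 members (25.4%), and 48 members (14.2%) had only narrow peaks within 5 kb. The median score was 13.5 (12.5 to 14.4) for the members with no such neighbour, 12.2 (11.1 to 15.3) for those with narrow neighbours only, and 12.0 (11.1 to 13.6) for those near a peak of 500 to 999 bp. These intervals overlap, and a score of 20 or more was reached by 17.6%, 16.7% and 16.3% of the 3 classes in that order. The nearest peak of any kind was a wide one for 123 members, one of 500 to 999 bp for 113, another member for 78 and another narrow peak for 25.

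Members grouped with each other to a limited extent. Under 1 kb from another member lay 50 of 339, or 14.7% (11.1 to 19.0), and 290 of 1169 other narrow peaks, or 24.8% (22.4 to 27.4), lay under 1 kb from another of their own set. The second set is larger and is held to the surroundings of wide peaks, so the shares are given side by side only. The distance from a member to the next member had a median of 92422 bases, with quartiles of 13127 and 230709 bases. Widening the limit added few members. Within groups chained at gaps under 2 kb were 54 members, under 5 kb 64 (18.9%) and under 10 kb 79 (23.3%). Of the 64 members with another member under 5 kb away, 50 had it under 1 kb away.

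Chaining members at gaps under 5 kb gave 31 groups, of which 29 were pairs and 2 held 3 members. They lay on 3R (9 groups), 2L (8), X (6), 3L (5) and 2R (3). The median extent of a group from its first to its last base was 1037 bp, and the longest was 5511 bp. The ratio of the highest to the lowest score within a group had a median of 1.45 on the deposited values and was 2 or more in 11 of the 31 groups. It was not set against the ratio between members of different groups. It was highest, at 8.43, in the 2L pair at 13665580 to 13666730, whose members scored 79.31 and 9.41. Grouped members had a median score of 12.2 (11.2 to 15.3) and members alone 13.1 (12.0 to 14.0).

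Both groups of 3 were on 3R and were compact. The first ran over 1333 bp from 21032574 to 21033906, with scores of 8.73, 11.22 and 34.72, separated by 62 and 224 bases. The second ran over 1261 bp from 25809234 to 25810494, with scores of 25.02, 11.98 and 11.97, separated by 50 and 160 bases. In each the widest member, of 488 and 464 bp, had the highest score and lay at one end. Among the 24 groups chained at gaps under 1 kb, the joined extent had a median of 963 bp and reached 1000 bp or more in 11, which is the width from which the rule calls a single peak wide.

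Wide peaks were sparser around isolated narrow peaks also just beyond the 5 kb that the rule clears. Between 5 and 50 kb from a member lay a median of 3 wide peaks, with quartiles of 1.5 and 5 and a mean of 3.77. The other narrow peaks had a median of 4, with quartiles of 2 and 7 and a mean of 4.88. No wide peak in that range was found for 38 members, or 11.2% (8.06 to 15.1), and for 66 other narrow peaks, or 5.65% (4.39 to 7.13). Wide peaks themselves had a mean of 4.48 others in that range and peaks of 500 to 999 bp a mean of 4.42. Those sets were not chosen by their distance from a wide peak, whereas both narrow sets were. The order of the means therefore cannot be read as a trait of members. The part of the rule in these numbers was not tested.

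The difference in wide-peak number lay within 25 kb. Between 5 and 25 kb the mean was 1.59 for members and 2.68 for other narrow peaks. Between 25 and 50 kb it was 2.18 for members and 2.19 for other narrow peaks, and between 5 and 100 kb it was 7.48 and 8.58. By arm, the mean number between 5 and 50 kb was 3.54 for members and 5.47 for other narrow peaks on 2R, 3.42 and 5.26 on 2L, 3.37 and 4.54 on 3L, and 4.15 and 4.83 on 3R. On X the means were close, at 4.40 for members and 4.47 for other narrow peaks. Chromosome 4 had the opposite order, with 3 for its 1 member and a mean of 2.23 for its 22 other narrow peaks. The score of members showed no steady order with the number of wide peaks between 5 and 50 kb. The median was 11.6 with 0 wide peaks (n = 38), 14.0 with 1 to 2 (n = 81), 12.5 with 3 to 5 (n = 139) and 13.2 with 6 or more (n = 81).

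**Figure D5:**
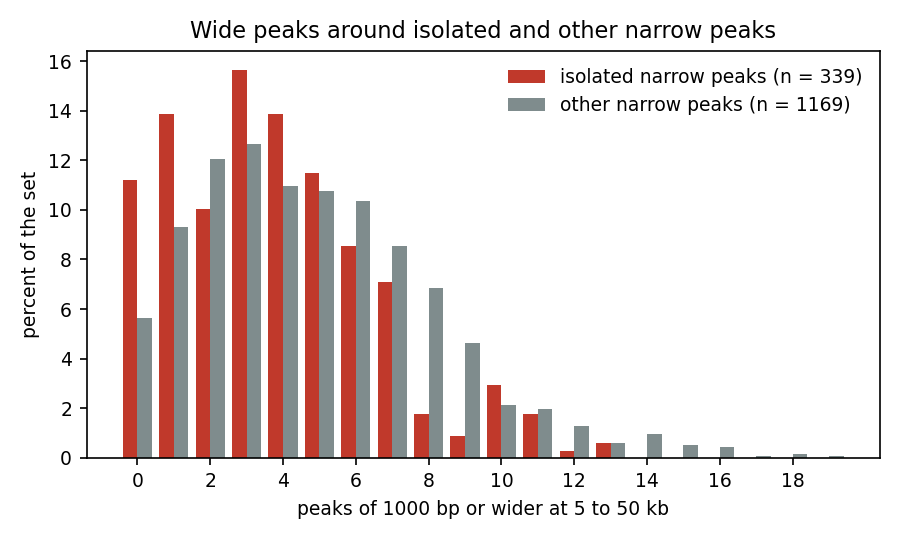
Percent of each set (vertical axis) by the number of peaks of 1000 bp or wider between 5 and 50 kb from the peak (horizontal axis), for the 339 isolated narrow peaks (red) and the 1169 other narrow peaks (grey). Isolated peaks are more frequent at 0 wide peaks, with 11.2% against 5.65%, and their median is 3 against 4.

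On the scale of 1 Mb the number of members differed less between bins poor and rich in wide peaks than that of the other narrow peaks. In 117 complete 1 Mb bins of the arms members averaged 2.86 and other narrow peaks 9.79 per bin. In the 40 bins with fewest wide peaks (8 to 27) the means were 2.48 members and 5.15 other narrow peaks. In the 41 bins with 28 to 40 wide peaks they were 2.93 members and 9.88 others, and in the 36 bins with 41 to 67 wide peaks 3.22 members and 14.8 others. The rule places the other narrow peaks beside wide peaks and the members away from them, so bins rich in wide peaks hold more sequence open to the others and less open to members. The variance of the number per bin was 1.33 times the mean for members and 2.97 times the mean for other narrow peaks. A value of 1 would hold for independent placement at an equal rate in every bin. Because the open sequence differs between bins, these ratios cannot show whether peaks were placed independently within it. Members were absent from 12 bins. The fullest bins held 9 members each, at 3 to 4 Mb of 2L beside 19 wide peaks, and at 0 to 1 Mb of 3R beside 38 wide peaks.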

How the data were processed

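The members, classes and limits used here were chosen with earlier results of these data known. The submitters' processing notes name BWA, MACS2 and CASAVA (versions 1.7.0.2 and 1.7.0.3) beside the build BDGP5; order and settings are not given in the sources used here. Coordinates refer to FlyBase release 5, per the file headers. The deposited score of each peak is the authors' own value on an unstated scale, and the deposited start and end are other values in bases. The way libraries were pooled for peak calling is likewise not given. Width was end minus start plus 1, and distance the bases between 2 peaks. Shares have exact Clopper-Pearson, densities exact Poisson and medians order-statistic (exact binomial) 95% intervals, all for counting error only. All of these intervals take peaks as independent. Peaks named by position were the 10 highest-scoring and 10 farthest members, the highest of each arm, the largest groups and the 5 on each side of each limit; other gaps and bins were named after their values were seen. Python 3.11.15, numpy 2.4.6, scipy 1.17.1 and pandas 2.3.3 were used, and the functions were tested on simulated data. Alternatives changed each limit, the score threshold and the merging of peaks.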

Additional observations from a re-analysis of the deposited data

Results flagged for a closer look

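Sequence outside the 6 arms, which the comparisons do not use, also held peaks that meet the same limits of width and distance. There were 334 of them among the 342 narrow peaks of that sequence, against 339 of 1508 on the arms. Of the 334, 313 lay on Uextra, a collection of pieces placed on no chromosome, and 21 on other sequences. They are noted because no comparison above uses that sequence. Their scores ran from 8.06 to 120.85 with a median of 32.8, and their median width was 276 bp. Many of these sequences are short pieces, so a distance from a wide peak has another meaning there than on an arm.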

How the results depend on the processing

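No paired analysis was possible because the list has no column for a replicate, and no replicate could be left out for the same reason. Under 11 alternatives for 6 results, 48 of 66 values stayed within 1.5 times the main count or within the 95% interval of the main value, and 18 moved past these limits. For the difference in median score, the interval was that of the isolated median with the other median held fixed. It leaves out the counting error of the other median. The difference in median score, the only one of the 6 that has a sign, stayed positive under all 11. The number of isolated narrow peaks, 339 in the list as deposited, was 76 without the lowest 25% of arm peaks by score and 225 without peaks at or below the mitochondrial score. Their share of narrow peaks, 22.5%, was 30.5% beyond 2000 bp, 16.0% beyond 10000 bp, 19.3% with wide peaks from 750 bp and 31.2% from 1500 bp, 40.9% without the lowest 25% by score, 44.2% with peaks closer than 500 bp merged, 16.8% with no peak of 500 bp or wider within 5 kb, and 30.0% without peaks at or below the mitochondrial score. Merging peaks closer than 500 bp left 246 isolated and 311 other narrow peaks, from 339 and 1169 in the list as deposited. The median score of isolated narrow peaks, 12.8, was 14.4 with narrow peaks under 600 bp and 25.3 without the lowest 25% by score. It was 15.6 without peaks at or below the mitochondrial score. The difference in median score from other narrow peaks, 2.08, was 3.66 without the lowest 25% by score and lay between 1.68 and 3.27 otherwise. The share under 1 kb from another isolated narrow peak, 14.7%, was 5.26% without the lowest 25% by score, 1.63% with peaks closer than 500 bp merged, which joins such pairs by construction, and 11.1% without peaks at or below the mitochondrial score. The median of 3 wide peaks between 5 and 50 kb was 2 with wide peaks from 1500 bp. The contrast with the median of 4 for other narrow peaks did not hold throughout. Both medians were 4 beyond 2000 bp and without the lowest 25% by score, and both were 3 with peaks closer than 500 bp merged. The mean stayed lower for isolated than for other narrow peaks under all 11, at 2.87 against 3.30 with merging. The last 3 alternatives, on peaks of 500 bp or wider, the mitochondrial score and the ends of the arms, were added after the data were seen. Depth is unknown, so sequence without a peak was not detected at the authors' threshold.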
